A study of Homo sapiens with 6 samples.

Results

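The PNMA genes and several other human genes carry coding sequence taken over from the Gag gene of long terminal repeat retrotransposons. The 8 such genes considered here were PNMA1, PNMA2, PNMA3, PNMA5, MOAP1, PEG10, ARC and RTL1, out of 18417 genes measured. They were chosen by name as members of this class after the low value of PNMA5 in drug-treated cells had been seen, and each was read from the probe set that carried its symbol and no other. All 8 had exactly 1 such probe set. Expression was measured on 1-colour Affymetrix whole-transcript arrays in the human melanoma line WM164, whose BRAF kinase is mutated. The 3 parent samples are labelled as controls, and the series title says that they received the solvent DMSO. The 3 IDTC colony samples, described as resistant, had grown with 500 nM of PLX4032 over 60 days. PLX4032 is vemurafenib, a drug that blocks mutant BRAF. Both groups carry the BRAF mutation and come from this 1 line. The labels do not say whether a colony grew from a single cell or whether the replicates were separate cultures, so each p-value reflects only how far these samples vary, and that variation may be technical.

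Gag is the structural protein that assembles into the capsid of a retrotransposon or retrovirus. In the course of mammalian evolution such sequences were retained as cellular genes, and some of the resulting proteins, ARC, PEG10 and PNMA2 among them, can still assemble into capsid-like particles. The PNMA proteins are named for their recognition by antibodies of patients with paraneoplastic neurological disease, in which a tumour provokes an immune response to neuronal proteins. Many of these genes are expressed mainly in brain or placenta, and several appear in tumours.

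Of the 7 genes other than PNMA5, 3 were lower in the colonies and none higher (limma, Benjamini-Hochberg adjusted p under 0.05), against 22.9% of all genes called lower and 20.9% called higher. The 3 were PNMA1, PEG10 and MOAP1, and the remaining 4 (PNMA2, PNMA3, ARC and RTL1) were not called. The median log2 difference of the 7 was -0.11, beside 0.00 for all genes. PNMA5 had the widest gap of the 8, a log2 difference of -4.45. It is the difference that drew attention to the class, so it is given as a description with no test. Among the 7, every colony value lay below every parent value in 2 (PNMA1 and PEG10), a pattern seen in 26.4% of all genes. In none was every colony value above every parent value (24.4% of all genes), and the groups overlapped in the other 5. PNMA5 had no overlap either.

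**Figure D1:**
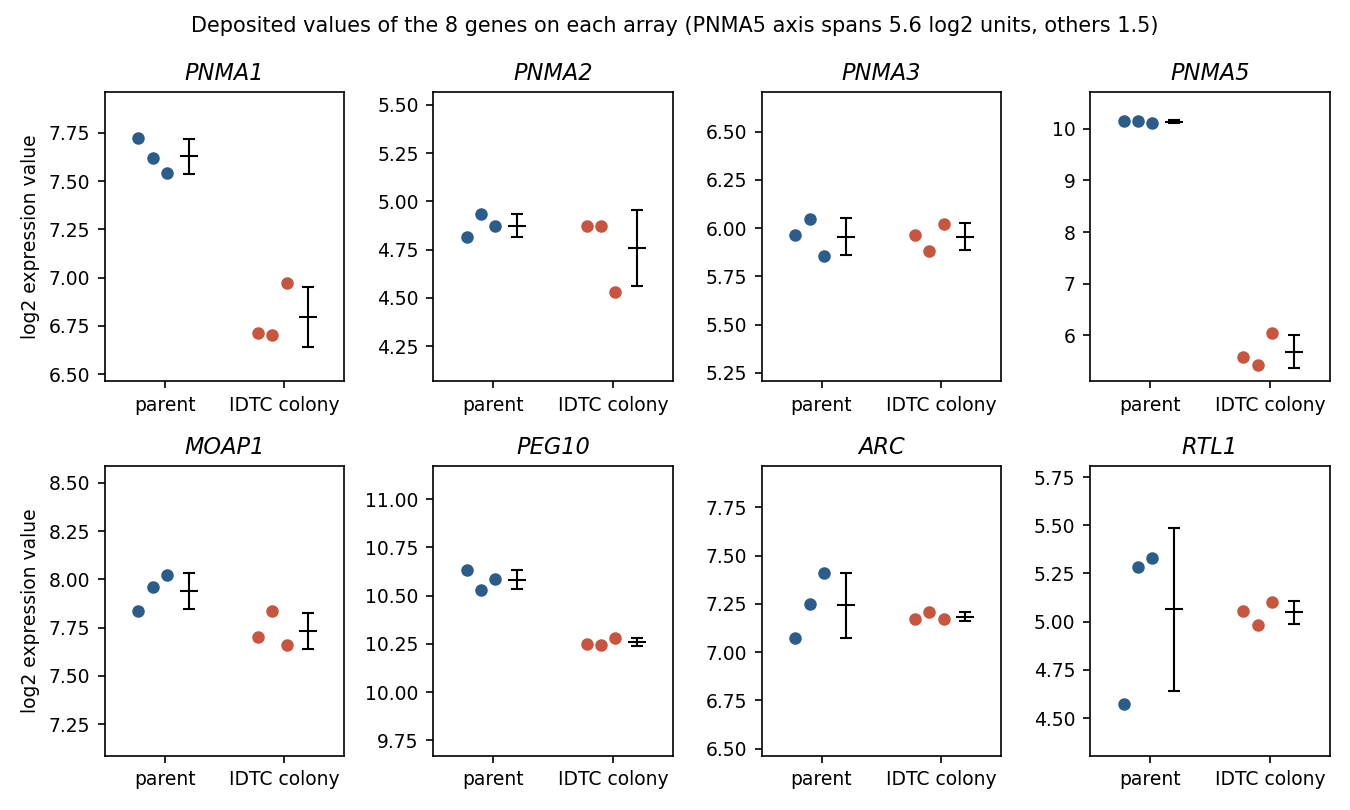
Deposited log2 expression values of the 8 genes in 3 parent (blue) and 3 IDTC colony (red) arrays, in order of replicate number, with the mean and SD of each group in black. The axis of PNMA5 covers a wider range than the others. PNMA5, PNMA1 and PEG10 have all colony points below all parent points, and RTL1 has 1 low parent point.

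WM164 cells carried the defining markers of their labelled lineage. PMEL, MLANA, TYR, SOX10 and MITF had group means from 9.50 to 12.86, above the array medians of 6.25 to 6.34, whereas TYRP1 lay below them at 4.69 ± 0.10 in parents and 4.45 ± 0.09 in colonies (mean ± SD, n = 3). Of these lineage markers MLANA (log2 difference -1.45) and TYRP1 (-0.23) were lower, PMEL (0.33) and SOX10 (0.42) higher, and TYR and MITF not called. The lower count was 1 without parent replicate 3, colony replicate 2 or colony replicate 3, over all probe sets and with the replicate block. It was also 1 above the median expression, with 5 of these markers kept. Both groups lay below the lowest array median for 3 of 5 keratinocyte, 2 of 5 fibroblast, 5 of 5 endothelial, 3 of 5 leukocyte and 2 of 6 neuronal markers measured. None of the keratinocyte or endothelial markers was called (without parent replicate 1, 2 keratinocyte markers were lower). Of the fibroblast markers 2 were lower, and of the leukocyte markers LYZ (-2.35) and FCER1G (-1.44) were lower. Of the neuronal markers, MAP2 (1.20) and SNAP25 (1.06) were higher and GAD1 (-0.25) lower. Their part in the results on the Gag-derived genes was not tested. In samples of this kind, fewer cells that express a gene and less RNA per cell cannot be told apart.

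PNMA5 is a gene of the family on chromosome X that is known mainly from brain. In the parent samples it was recorded at 10.16, 10.15 and 10.11 on the log2 scale, and in the colonies at 5.59, 5.43 and 6.04. The parent values lay within 0.05 of each other, far above all colony values. The group means were 10.14 ± 0.03 and 5.69 ± 0.32 (SD, n = 3 each), a ratio of 21.9 on the linear scale of the deposited values. Only 3 of the 18417 genes had a lower log2 difference. The colony mean was under the lowest array median (6.25). No test of signal over background was made, and the ratio describes the deposited values. The 3 colonies were less alike for PNMA5 than for most genes. Their SD was at percentile 99.5 of all genes, with colony 3 the highest, whereas the parent SD was at percentile 12.2.

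The genes whose profile over the 6 arrays was nearest to that of PNMA5, by root mean square distance after each was centred on its own mean, were CD96, IGFBP5 and GMPR. The distances were 0.21, 0.23 and 0.29 log2 units. CD96, an immunoglobulin-family receptor, went from 10.17 ± 0.07 in parents to 5.53 ± 0.01 in colonies. IGFBP5, which binds insulin-like growth factors, went from 10.92 ± 0.02 to 6.15 ± 0.09, and GMPR, guanosine monophosphate reductase, from 10.05 to 5.50 ± 0.18, with 3 identical parent values. For these 3 genes the colonies differed by less than for PNMA5. This likeness is dominated by the gap between the groups. PNMA5 was chosen for that gap, so the likeness is given as a description.

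The bases before the annotated start sites of PNMA5, PNMA3 and MOAP1 are shown because these members of the same family, all present in the RefSeq promoter table (GRCh38.p14), gave different values here. The table held 4 of the 8 genes, the fourth being RTL1, and PNMA1, PNMA2, PEG10 and ARC were not in it. Each line gives the 250 bases that precede the start, 5′ to 3′ on the strand of the gene, with matches to any of 6 searched motifs in capitals. PNMA5 lies on the minus strand at chrX:152994117-152994366, PNMA3 on the plus strand at chrX:153056220-153056469, and MOAP1 on the minus strand at chr14:93184898-93185147.
PNMA5: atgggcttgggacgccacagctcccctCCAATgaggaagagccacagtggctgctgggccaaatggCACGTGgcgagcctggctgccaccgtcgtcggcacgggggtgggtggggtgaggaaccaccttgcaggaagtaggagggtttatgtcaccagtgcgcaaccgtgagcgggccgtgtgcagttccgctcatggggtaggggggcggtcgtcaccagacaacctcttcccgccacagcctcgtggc
PNMA3: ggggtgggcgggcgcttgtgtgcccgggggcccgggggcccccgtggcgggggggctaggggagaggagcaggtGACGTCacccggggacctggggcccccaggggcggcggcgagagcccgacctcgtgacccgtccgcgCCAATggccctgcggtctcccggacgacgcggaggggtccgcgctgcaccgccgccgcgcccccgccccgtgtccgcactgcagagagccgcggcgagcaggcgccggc
MOAP1: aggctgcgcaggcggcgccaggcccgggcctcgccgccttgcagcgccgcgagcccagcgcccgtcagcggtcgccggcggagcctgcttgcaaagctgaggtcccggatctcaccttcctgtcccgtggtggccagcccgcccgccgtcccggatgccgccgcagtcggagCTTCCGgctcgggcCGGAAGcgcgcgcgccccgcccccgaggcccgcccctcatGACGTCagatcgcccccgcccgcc

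The motifs were searched on both strands and their matches in these windows did not overlap each other. PNMA5 has 3 annotated starts in the table, and the line shows the window of the outermost. That window held CACGTG, the E-box bound by factors of the MITF and MYC type, from 184 to 179 bases before the start, and the windows of the other 2 starts held CCAAT alone. CACGTG was in 6.31% of the 34788 distinct windows in the table. PNMA3 and MOAP1 each held GACGTC, the inner letters of the cyclic AMP response element, which was in 4.34% of windows. MOAP1 held CGGAAG, an ETS core, once on each strand (16.5% of windows), and the printed windows of PNMA5 and PNMA3 held CCAAT (32.0%). Neither TGANTCA, an AP-1 site (6.59%), nor TATAAA (10.8%) matched in the 3 printed windows. A match is a description of letters and shows no binding.

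The windows differed in their content of CG dinucleotides, the sites of DNA methylation. The outermost window of PNMA5 had 16, against 35 in PNMA3 and 38 in MOAP1, and a median of 11 over all windows. The windows of the other 2 starts of PNMA5, which lie inside the gene and largely overlap, had 2 each. The arrays measured neither methylation nor the start site in use.

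PNMA3, the antigen Ma3, whose gene is adjacent to PNMA5 in the order of measured genes on chromosome X, was level between the groups. Parents were at 5.96, 6.05 and 5.85 and colonies at 5.96, 5.88 and 6.02. The groups overlapped throughout. The log2 difference was 0.00 ± 0.06 (SE), with a 95% interval from -0.15 to 0.15 and adjusted p = 0.996 by limma. Both means lay below the lowest array median.

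Around PNMA5 in the gene order, 2 of the 6 nearest measured genes were lower and none was higher. Of all genes 22.9% were called lower and 20.9% higher. MAGEA1, a cancer-testis antigen of a family with close copies, went from 9.43 ± 0.12 to 7.97 ± 0.16, a log2 difference of -1.46 ± 0.09 (SE, adjusted p = 1.27e-05 by limma). CETN2, which encodes the centriole protein centrin 2, was lower by a log2 difference of -0.27 ± 0.06. The sterol synthesis enzyme gene NSDHL (0.06), the LIM-domain protein gene ZNF185 (0.10), PNMA3 and PNMA6A (-0.27) were not called. The range over the 6 genes was -1.46 to 0.10. PNMA5 was chosen for its low value, so its distance from these neighbours is a description only.

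PNMA1 encodes the antigen Ma1, the founding member of the family. Parents were at 7.72, 7.62 and 7.54 and colonies at 6.71, 6.70 and 6.97. All colonies lay below all parents, and colony 3 was again the highest of its group. The difference was -0.83 ± 0.09 on the log2 scale (SE, 95% interval -1.03 to -0.63, adjusted p = 0.000141 by limma), a ratio of 1.78. It stayed under the threshold in all 13 alternatives, from -0.92 to -0.78. Among its 6 neighbours in the gene order on chromosome 14, DNAL1, an axonemal dynein light chain gene, was lower (-0.49) and MIDEAS was higher (0.26), with a median of 0.04. DNAL1 was at 5.41 ± 0.31 in parents and 4.92 ± 0.11 in colonies (SD, n = 3), both below the lowest array median.

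MOAP1, also known as PNMA4, binds the pro-apoptotic protein BAX and links death receptor signals to mitochondria. Parents were at 7.84, 7.96 and 8.02 and colonies at 7.70, 7.84 and 7.66. The groups met at 7.84, since parent 1 and colony 2 had the same deposited value. The log2 difference was -0.21 ± 0.07 (SE, 95% interval -0.37 to -0.05, adjusted p = 0.0444 by limma). The call was lost in 6 of 13 alternatives. These were without parent replicate 2 (adjusted p = 0.123, limma), without parent replicate 3 (0.145), without colony replicate 1 (0.131), without colony replicate 3 (0.143), over all probe sets (0.0846) and with the replicate block (0.0598). Of its 6 neighbours, UBR7, a ubiquitin ligase gene, was lower (-0.49) and the other 5 were not called.

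Genes of the pathway around MOAP1 went both ways. Of 12 measured, 3 were higher, 4 lower and 5 not called, beside 20.9% of all genes called higher and 22.9% lower. The median was -0.14 beside 0.00 for all genes. Over the alternatives the lower count ran from 3 to 5. The apoptosis inhibitor gene MCL1 (0.39 ± 0.07, log2 difference ± SE) and RASSF1 (0.33 ± 0.05), whose product binds MOAP1, were higher. BAK1, a pore-forming relative of BAX, was lower (-0.37 ± 0.07), as was the death receptor gene TNFRSF1A (-0.24 ± 0.05). BAX itself was at 8.83 ± 0.06 and 8.86 ± 0.02 (SD, n = 3), and its difference of 0.03 was not called.

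PNMA2, the antigen Ma2, was low on all arrays. Parents were at 4.82, 4.93 and 4.87, and colonies at 4.87, 4.87 and 4.53. Only colony 3 lay apart, below the rest. The log2 difference of -0.11 ± 0.10 (SE, 95% interval -0.34 to 0.11) was not called (adjusted p = 0.405 by limma), and without colony replicate 3 it was 0.00. Parent 3, colony 1 and colony 2 had identical deposited values for this gene. Such ties occurred in 30.4% of all genes and in 4 of these 8 (PNMA2, PNMA3, MOAP1 and ARC), and they are a property of the deposited values.

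PEG10 is an imprinted gene, transcribed from the paternal copy, that the placenta needs in order to form. Parents were at 10.63, 10.53 and 10.59 and colonies at 10.25, 10.24 and 10.28. The groups were apart and the colonies nearly equal, spanning 0.04. The log2 difference was -0.33 ± 0.05 (SE, 95% interval -0.43 to -0.22, adjusted p = 0.000732 by limma), a ratio of 1.25, and it passed in all 13 alternatives (-0.35 to -0.26).

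The genes around PEG10 on chromosome 7 went both ways. SGCE, which encodes epsilon-sarcoglycan and is likewise imprinted, adjoins PEG10. Parents were at 9.19, 9.06 and 9.17 for SGCE and colonies at 9.68, 9.82 and 9.81, a higher level in every colony (log2 difference 0.63 ± 0.06, SE, adjusted p = 8.34e-05 by limma). PPP1R9A, on the other side, encodes the actin-binding scaffold neurabin. It was at 7.11, 6.85 and 6.69 in parents and 5.16, 5.13 and 5.13 in colonies (-1.74 ± 0.10, adjusted p = 7.19e-06). CASD1, a sialic acid acetyltransferase gene, was lower by a log2 difference of -0.32 ± 0.05, close to PEG10. Of the 6 neighbours 1 was higher and 2 lower, beside 20.9% of all genes called higher and 22.9% lower. The other 3, COL1A2, PON1 and PON3, were not called.

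**Figure D2:**
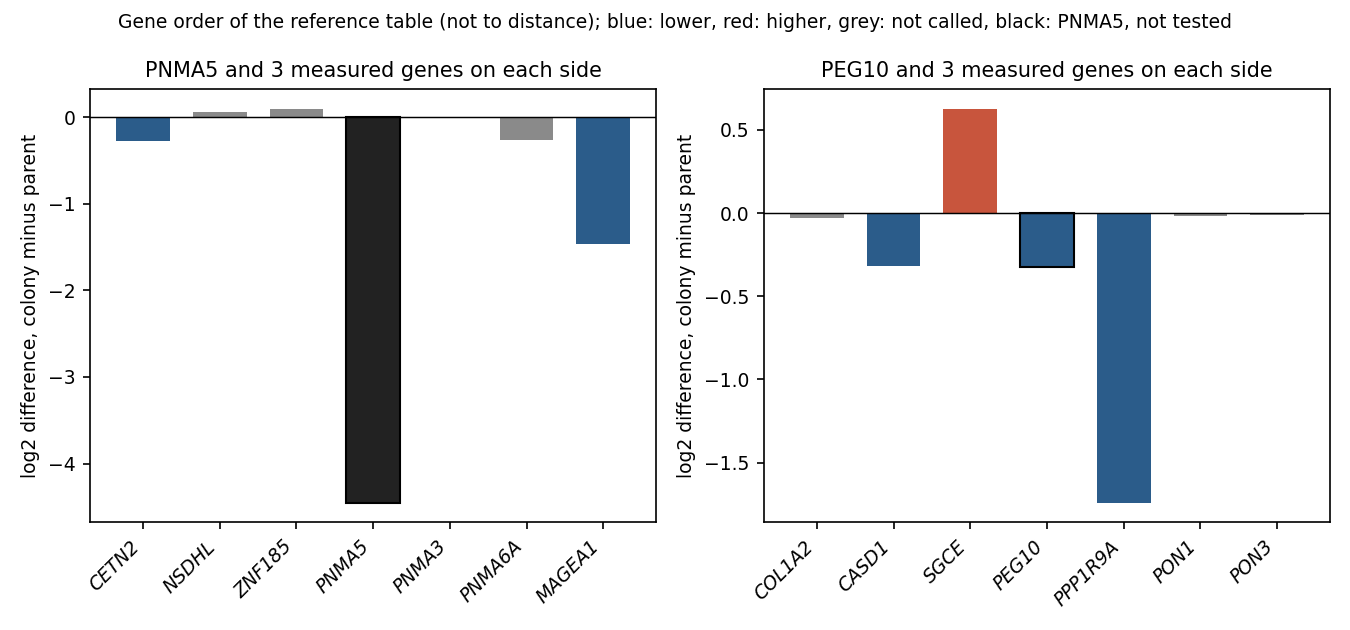
Log2 difference (IDTC colony minus parent) of PNMA5 and PEG10 and of the 3 measured genes on each side, in the gene order of the reference table and not to distance. The bar of PNMA5 reaches -4.45 between neighbours from -1.46 to 0.10, and PEG10 at -0.33 stands between SGCE at 0.63 and PPP1R9A at -1.74.

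Genes listed for the handling of PEG10 protein, mostly of the ubiquitin system, were also divided. Of 6 measured, 1 was higher and 2 lower, beside 20.9% of all genes called higher and 22.9% lower. USP9X, a deubiquitinase, was higher (0.49 ± 0.06, log2 difference ± SE), and UBE3A, the ubiquitin ligase lost in Angelman syndrome, was lower (-0.76 ± 0.05), as was ATXN10 (-0.53 ± 0.04). The proteasomal shuttle factor gene UBQLN2 was at 8.83 ± 0.03 and 8.84 ± 0.00 (SD, n = 3) and was not called.

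RTL1, a second imprinted gene of this origin, acts in the blood vessels of the placenta and in muscle. Parents were at 4.58, 5.29 and 5.33 and colonies at 5.06, 4.98 and 5.10. Parent 1 was far below the other 2 parents, which both lay above all colonies. The parent SD of 0.42 was at percentile 99.9 of all genes. The log2 difference was -0.02 ± 0.19 (SE, 95% interval -0.46 to 0.42, adjusted p = 0.961 by limma). Without parent replicate 1 it became -0.26 and was called (adjusted p = 0.00825), while without parent replicate 2 or 3 it was positive and not called. Both group means lay below the lowest array median.

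The imprinted domain that holds RTL1 on chromosome 14 gave no calls on the deposited values of all 6 arrays. Its 6 nearest measured neighbours had log2 differences from -0.13 to 0.03, among them the Notch-pathway ligand gene DLK1 (-0.13), the non-coding RNA gene MEG3 (-0.02) and the microRNA genes MIR127 (0.03) and MIR136 (-0.07). The 8 measured partners in the PEG10 and RTL1 domains held 1 higher and 2 lower, beside 20.9% and 22.9% of all genes. The other 5 were not called, and the median of the 8 was -0.09. Without parent replicate 1 the lower count was 4, as DLK1 (-0.18) and DIO3 (-0.27), a deiodinase gene, were then called. DIO3 was also called lower with arrays shifted to equal medians (-0.21, adjusted p = 0.0352 by limma) and after quantile normalization (-0.20, 0.0403). BEGAIN was called lower without colony replicate 3 (-0.18, 0.0344). Of 15 other imprinted genes, 3 were lower and none higher, beside 22.9% of all genes called lower and 20.9% higher, with PHLDA2 (-1.40 ± 0.08, SE), which restrains placental growth, and the growth suppressor gene NDN (-0.83 ± 0.07) as the lowest.

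ARC is an immediate early gene of neurons whose protein shapes synaptic strength. Parents were at 7.07, 7.25 and 7.41 and colonies at 7.17, 7.21 and 7.17. The colonies lay inside the parent range. The log2 difference of -0.06 ± 0.08 (SE, 95% interval -0.25 to 0.13) was not called (adjusted p = 0.631 by limma), and without parent replicate 3 its sign turned (0.02). The parent SD of 0.17 exceeded the colony SD of 0.02.

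Other immediate early genes, which like ARC are switched on soon after a stimulus, went both ways. The list of 22 measured genes also held SRF, MEF2A, MEF2C and MEF2D, transcription factors that act on ARC. Of all 22, 11 were higher, 6 lower and 5 not called (median 0.18), beside 20.9% of all genes called higher and 22.9% lower. Of the 18 without these 4 regulators, 10 were higher, 5 lower and 3 not called (median 0.36). FOS went from 8.75, 8.81 and 8.99 in parents to 11.01, 10.98 and 10.81 in colonies (2.09 ± 0.08, log2 difference ± SE). JUN went from 6.86, 6.69 and 6.77 to the same deposited value of 8.84 on each colony array (2.07 ± 0.05). In the other direction, EGR3, a transcription factor gene, had a difference of -1.03 ± 0.08 and IER3, a gene of cell survival, of -0.95 ± 0.04. Whether ARC differed from these genes was not tested.

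The wider class of Gag-derived genes held 15 more that were measured. Of these, 1 was higher, 3 were lower and 11 were not called, beside 43.8% of all genes called in either direction, and 9 had both group means below the lowest array median. RTL6 was lowest, from 8.52, 8.41 and 8.53 in parents to 7.90, 7.95 and 8.07 in colonies (-0.51 ± 0.06, SE, adjusted p = 0.000315 by limma). LDOC1, whose product is a small leucine zipper protein, went from 6.29 ± 0.03 to 5.97 ± 0.06 (SD, n = 3), a log2 difference of -0.32 ± 0.05 (SE, adjusted p = 0.00114 by limma). In both genes all colonies were below all parents.

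RTL5 was lower as well (-0.31 ± 0.09, SE, adjusted p = 0.0306 by limma), a call that was lost without parent replicate 2 (adjusted p = 0.0545, limma), colony replicate 1 (0.111) or colony replicate 2 (0.0845) and over all probe sets (0.0653). RTL5 was at 5.74 ± 0.18 in parents and 5.42 ± 0.10 in colonies (SD, n = 3), both below the lowest array median. RTL8A was the only one of the 15 called higher. Parents were at 10.27, 10.41 and 10.33 and colonies at 10.75, 10.70 and 10.61, with no overlap (0.35 ± 0.06, adjusted p = 0.00168). RTL8A, RTL8B and RTL8C are near-identical copies on chromosome X whose signals may be shared, and RTL8B (0.10) and RTL8C (0.09) were not called. After quantile normalization RTL8C (0.15, adjusted p = 0.0446 by limma) was called higher too. PNMA6A (-0.27) was called lower in 3 alternatives, namely after quantile normalization (-0.31, adjusted p = 0.0477), with arrays shifted to equal medians (-0.30, 0.0369) and without parent replicate 1 (-0.41, 0.00334). Without parent replicate 2 its difference was -0.16 and not called.

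**Figure D3:**
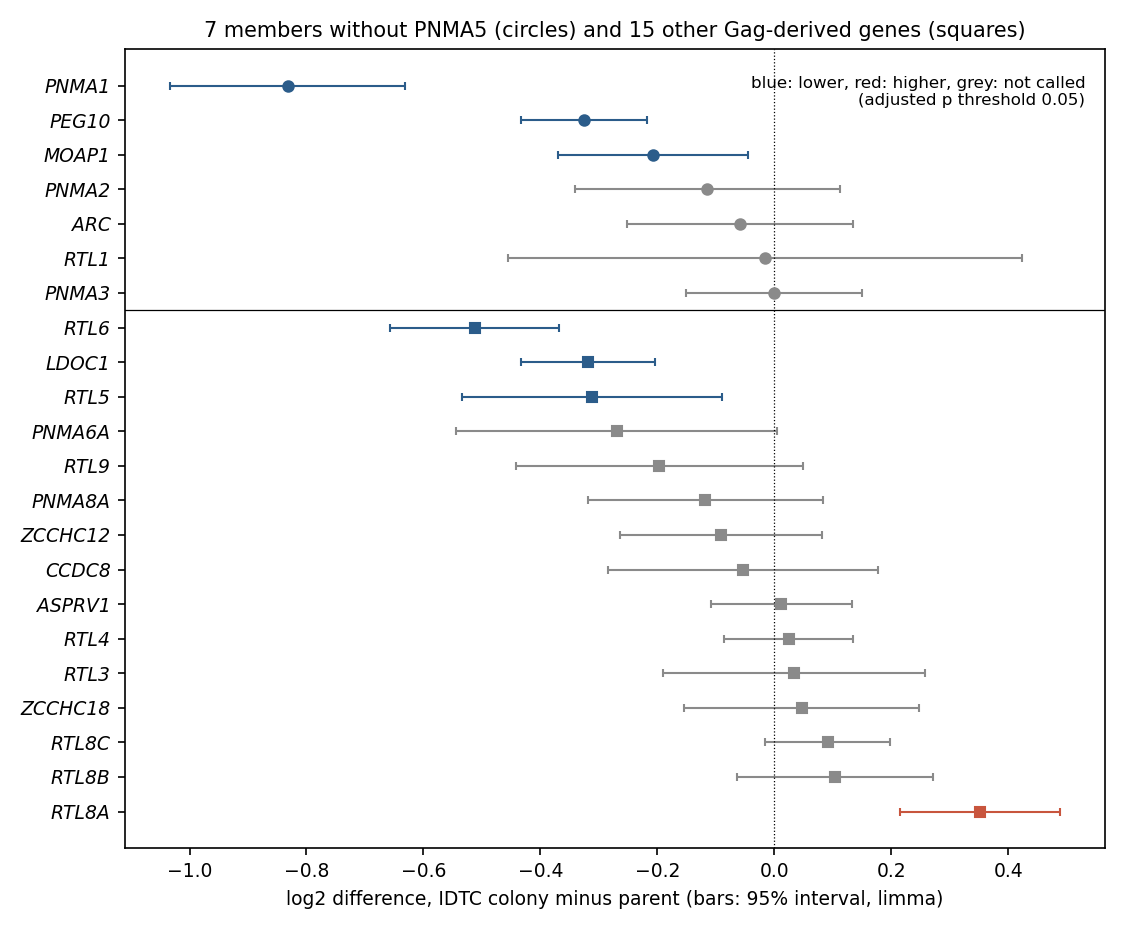
Log2 difference (IDTC colony minus parent) with its 95% interval for the 7 members other than PNMA5 (circles) and 15 other Gag-derived genes (squares). Genes called lower are blue, higher red and not called grey. PNMA1 at -0.83 is the lowest of those shown and RTL8A at 0.35 the highest.

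Factors that silence retroelements and their descendants by DNA methylation or histone marks, or that remove such methylation, were higher in 9 and lower in 6 of 20 measured genes (median 0.05), against 43.8% of all genes called in either direction. The DNA demethylase gene TET1 was higher (0.78 ± 0.09, log2 difference ± SE), as was SETDB1 (0.70 ± 0.05), a histone H3 lysine 9 methyltransferase. UHRF1, which guides maintenance methylation, was lower (-1.08 ± 0.05), as was the maintenance methyltransferase gene DNMT1 (-0.44 ± 0.05). Over the alternatives the higher count ran from 8 to 9 and the lower count from 5 to 7. The list holds factors of opposite action, so its count gives no direction of silencing.

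Other antigens of paraneoplastic disease showed no common direction. Of 13 measured, 2 were higher, 4 lower and 7 not called (median 0.04), beside 20.9% of all genes called higher and 22.9% lower. For 7 of the 13 both means lay below the lowest array median. Over the alternatives that kept all 13, the higher count ran from 1 to 3 and the lower count from 3 to 5. NOVA1, a neuronal splicing factor, went from 7.08, 6.91 and 6.88 in parents to 4.74, 5.03 and 5.02 in colonies (-2.03 ± 0.09, SE), and RCVRN, the photoreceptor protein recoverin, had a difference of -0.82 ± 0.10. The RNA-binding protein gene ELAVL2 (0.30 ± 0.07) and KLHL11 (0.18 ± 0.06) were higher. ELAVL2 was at 4.22 ± 0.06 in parents and 4.53 ± 0.12 in colonies (SD, n = 3), both below the lowest array median. The KLHL11 call was lost in 9 of 13 alternatives, 5 of which left out 1 array (all except parent replicate 1). Genes derived from retroviral envelopes gave no calls among 5 measured (limma, adjusted p under 0.05), all of them with both means below the lowest array median. ERV3-1 (0.41, adjusted p = 0.0644) was called higher in 4 of its alternatives, among them without parent replicate 2 (0.56, adjusted p = 0.0168), and was at 0.24 without parent replicate 1. ERVMER34-1 (-0.23, adjusted p = 0.0962) was called lower in 2, with arrays shifted to equal medians (0.0439) and with the replicate block (0.0246), and was at -0.13 without parent replicate 2.

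**Figure D4:**
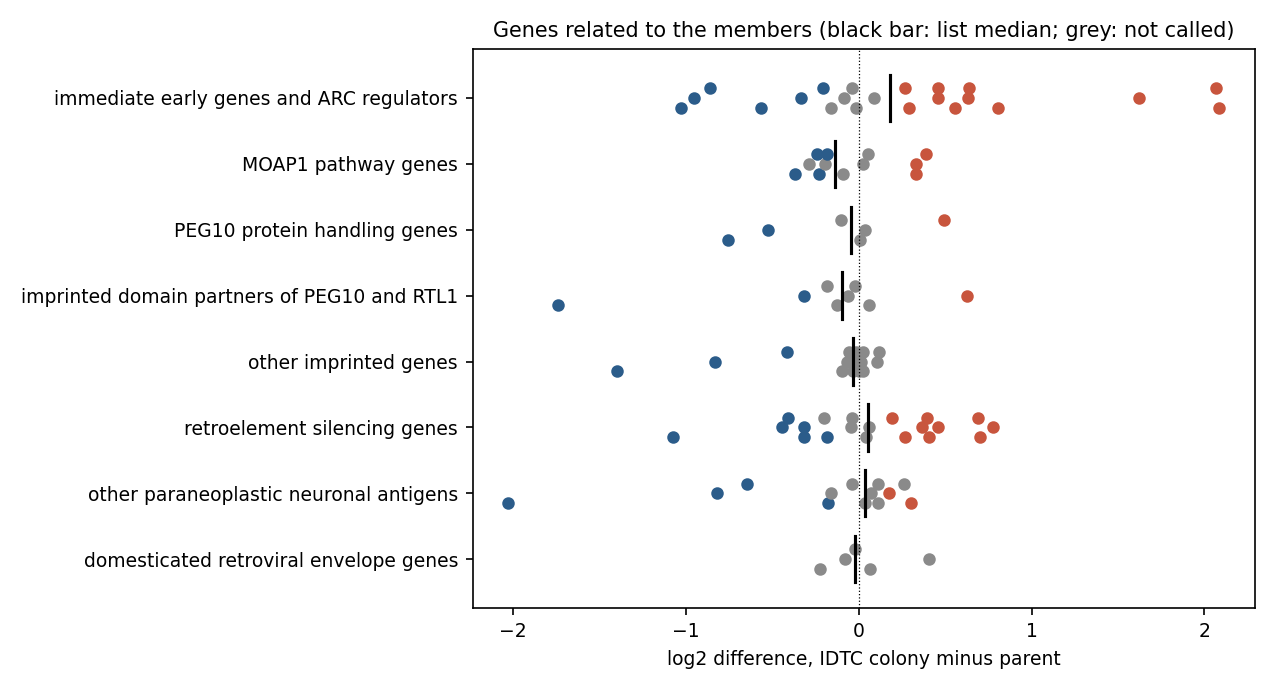
Log2 difference (IDTC colony minus parent) of each measured gene in 8 lists of genes related to the members, called higher in red, lower in blue and not called in grey, with the list median as a black bar. Immediate early genes and regulators of ARC reach from -1.03 to 2.09, and the envelope-derived genes hold no call in this fit.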

How the data were processed

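RNA came from a column kit and was biotin-labelled for the arrays, per the labels' protocols. The deposited values are log2 expression values per probe set, as their range shows. Affymetrix Expression Console was used, per the submitters' processing notes, with version and settings not given in the sources used here. The labels give no batch or scan date, so any batch confounded with the groups cannot be told apart from treatment. Arrays have no read depth, and their number limits precision.

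The platform annotation gave 1 gene symbol for 19460 of 33297 probe sets, of which 19429 matched the reference gene table (GRCh38.p14) by Entrez ID. For each of 18417 genes the probe set with the highest mean was used. Groups were compared by limma (lmFit, then eBayes; 2-sided; no covariate), adjusted by Benjamini-Hochberg over all genes with a threshold of 0.05. "Higher", "lower" and "called" refer to that test. Sequences are from RefSeq. Neighbours are the 3 measured genes on each side in the reference table's order. Named were all 8 members, other Gag-derived and domain partner genes, the 2 highest and 2 lowest called genes of each further list, and neighbours. Also named, outside this rule, were BAX, UBQLN2, ERV3-1 and ERVMER34-1, the lineage markers TYR and MITF, and the regulators of ARC. The 3 nearest profiles were named for a member past the threshold by at least 2-fold. Only PNMA5 met that rule, and it was chosen for its low value, so its nearest profiles are a description. Members, lists and motifs were chosen with earlier results of these data known. The procedure was tested on simulated data in which 200 of 18417 genes were changed. It called 78% of changes of 0.5 log2 units, and 11 unchanged genes. In the deposited data 43.8% of genes were called, so that setting differs and gives no error rate for these calls.

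There were 13 alternatives: each of the 6 arrays left out, a block for the replicate number, a fit over all probe sets, averaging of probe sets per gene, a shift of arrays to equal medians, quantile normalization, trended robust eBayes, and a fit restricted to genes above the median expression. Versions were R 4.3.3, limma 3.58.1, Python 3.11.15, pandas 2.3.3, numpy 2.4.6 and matplotlib 3.10.9.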

Additional observations from a re-analysis of the deposited data

How the results depend on the processing

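PNMA1 and PEG10 kept their direction and their call in all 13 alternatives, and PNMA5 its difference between -4.63 and -4.32. The MOAP1 call was lost over all probe sets and with the replicate block (log2 difference -0.21 in both, adjusted p = 0.0846 and 0.0598, limma), and leaving out each array gave -0.26 to -0.17. RTL1 was called only without parent replicate 1, and ranged from -0.26 to 0.12 when each array was left out. PNMA3, ARC and RTL1 changed sign in some of these fits without a call in the new direction. Among 15 other Gag-derived genes the count called higher was 2 after quantile normalization, and the count called lower was 1 when genes below the median expression stayed out, leaving 4 of the 15. Among the imprinted domain partners the lower count was 1 with that same restriction, leaving 2 of 8, and 2 to 4 when each array was left out. Of 1459 values of the other 116 genes under the alternatives, 34 lost and 30 gained a call, in 20 genes, and 0 reversed. The causes of these changes were not tested.

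Same-numbered arrays showed no shared deviation from their group means, with correlations of -0.09, -0.06 and -0.01. These values cannot tell whether the samples were paired by design. With the replicate block 2 of the 7 members other than PNMA5 were called lower, against 3 without it, and over all genes 3633 were higher and 3931 lower, against 3849 and 4212. PNMA2, PNMA3 and RTL1 had both means below the lowest array median, and their signal over background was not tested.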

Other observations

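The probe set that carries the symbols of both RTL10, a further Gag-derived gene, and its neighbour GNB1L stayed out of the comparison of genes. It was at 7.36, 7.44 and 7.44 in parents and 7.09, 7.16 and 7.16 in colonies, with all colonies below all parents. The log2 difference was -0.28 (adjusted p = 0.00576 by limma over all probe sets), and the share of each gene in it was not tested. PNMA6A had a second probe set besides the one used. The log2 differences of its probe sets were -0.27 and -0.10, and neither was called.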
